A study of Mus musculus with 6 samples.

Results

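The 9 CXC chemokine genes described here are Cxcl1, Cxcl2, Cxcl5, Cxcl9, Cxcl10, Cxcl11, Cxcl12, Cxcl14 and Cxcl16 of mouse embryonic stem cells, whose RNA was measured on 6 one-colour Agilent arrays. They were taken as every probe whose gene name on the array is one of these symbols, which gave 9 of 34650 gene names and 13 of 55681 probes. The genes were selected on their TKO and WT signals and detection flags on these same arrays, so the differences between the groups are given as a description without p-values. The 3 TKO samples were cells in which Tet1, Tet2 and Tet3, the enzymes that oxidise methylated cytosine in DNA, had been knocked out in the BJ FF2 ES line. The 3 WT samples were the parental BJ FF2 ES line itself. Both groups were cultured in parallel in 2i medium on inactivated mouse embryonic feeder cells, then freed of feeders and kept on matrigel until collection, and RNA came from 1 dish per sample. The labels name neither a clone of the TKO cells nor the altered exons. Replicates are dishes of the parental line in WT and of knockout cells made from it in TKO. Whether the TKO dishes share a clone is not stated. The p-values measure the spread between these dishes only.

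CXC chemokines are small secreted proteins, named for the residue between their first pair of cysteines, that attract cells carrying G-protein-coupled CXC receptors. Members with a glutamate-leucine-arginine motif, such as Cxcl1, Cxcl2 and Cxcl5, attract neutrophils through Cxcr2. Cxcl9, Cxcl10 and Cxcl11 are induced by interferon and attract T cells through Cxcr3, whereas Cxcl12 is a homeostatic chemokine that guides stem and progenitor cells through Cxcr4, with Ackr3 as a scavenging receptor.

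Levels below are the log2 processed signal of a probe minus the 75th percentile of its array, and a probe counts as detected where the scanner software marked it well above background. The 75th percentile lay between 366.9 and 412.9 intensity units, 51.9% to 58.5% of spots were detected, and 0 spots were saturated. Correlations between arrays were 0.994 to 0.995 within TKO, 0.997 to 0.998 within WT and 0.963 to 0.967 between the groups. The brightest probes of the targeted genes averaged 2.47 in TKO and 3.84 in WT for Tet1, 0.94 in TKO and 3.88 in WT for Tet2, and -1.99 in TKO and -1.75 in WT for Tet3. Such a probe checks the genotype only if it lies in the altered part. All arrays shared 1 slide and 1 scan. TKO replicate 1 and the 3 WT arrays lay in row 1 of the slide, and TKO replicates 2 and 3 in row 2. All 10 embryonic stem cell markers were detected on all 6 arrays, and 2 rose, 6 fell and 2 did not pass. The brightest were Nanog and Esrrb, which fell by 0.31 ± 0.05 and 0.48 ± 0.05 (SE), and Utf1, which differed by 0.04 ± 0.05. The largest fall was that of Zfp42, by 4.07, and Tdgf1 fell by 1.05. The summed level of the 10 on a linear scale was 387.5 to 392.5 in TKO and 632.1 to 654.1 in WT. This sum is weighted to its brightest probes, among them Zfp42, which averaged 7.49 in WT and 3.42 in TKO. It therefore does not stand for all 10 markers.

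Of the 9 genes, 6 were detected on at least 3 arrays and entered the fit (Cxcl5, Cxcl10, Cxcl11, Cxcl12, Cxcl14 and Cxcl16). The other 3 (Cxcl1, Cxcl2 and Cxcl9) were detected on 0 arrays. In the fit, 5 of the 6 were called higher in TKO and 0 lower, where 59.6% of the 21561 tested genes were called (30% higher, 29.7% lower). All 5 were at least 2-fold higher, as were 7.41% of tested genes, and the TKO values of all 5 lay above the WT values, with 67.6% of tested genes having groups that do not overlap. By probe, 6 of the 8 fitted were called higher, all at least 2-fold and with groups apart. Among 30730 fitted probes 57.1% were called, 28.9% higher and 7.55% at least 2-fold higher, and 65.8% had groups apart. Nothing is read from these counts, because the same contrast was known when the genes were picked. Cxcl5 passed the filter through its TKO arrays alone.

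**Figure D1:**
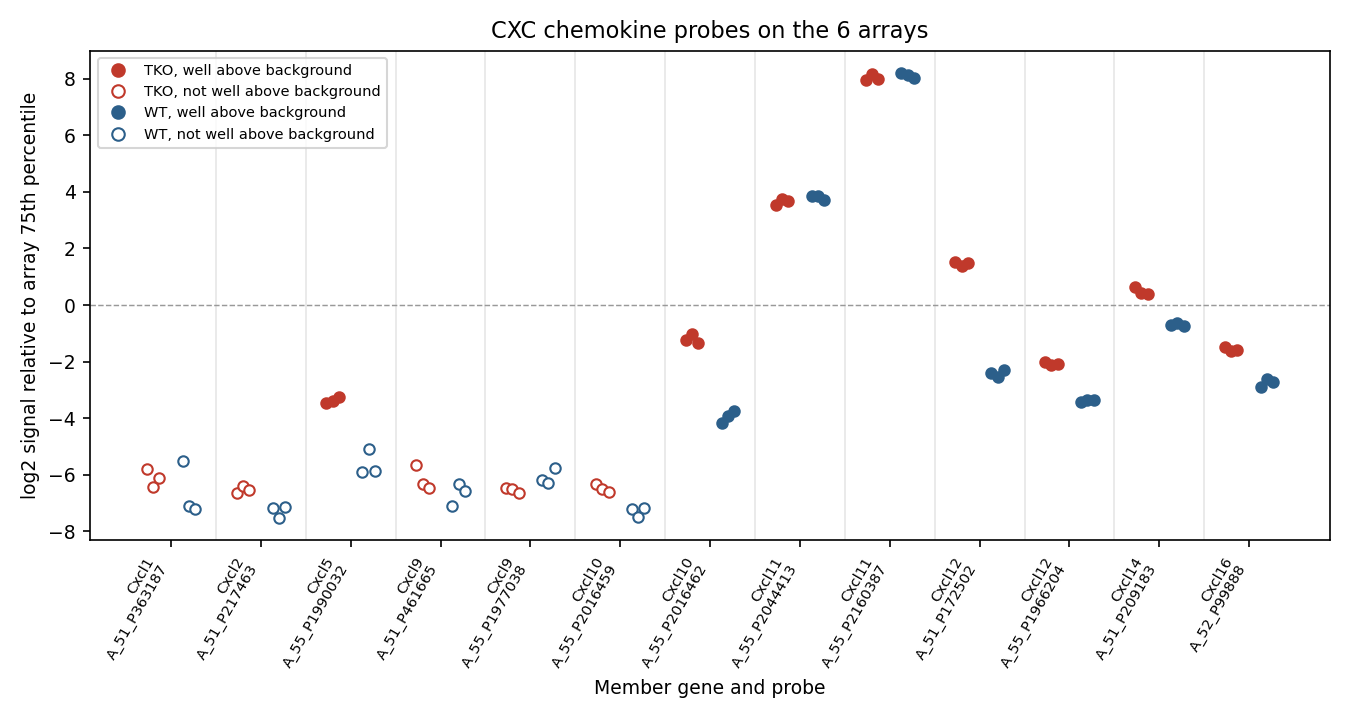
Levels of the 13 member probes (horizontal axis: gene and probe; vertical axis: log2 signal relative to the 75th percentile of the array), with 3 TKO points on the left and 3 WT points on the right of each column, filled where detected. Cxcl5, Cxcl10, Cxcl12, Cxcl14 and Cxcl16 have detected TKO points above all WT points, both Cxcl11 probes overlap, and the open points near the bottom carry no measured level; heights of different probes are not comparable.

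Cxcl12, also called SDF-1, had the largest difference among the 5 fitted genes detected on all 6 arrays. Its brightest probe, A_51_P172502 (chr6:117131227-117131286, plus strand, build mm9 per the file headers), is annotated to 2 RefSeq transcripts. The probe had levels of 1.53, 1.39 and 1.48 on the TKO arrays, against -2.41, -2.54 and -2.29 on the WT arrays. The groups lay far apart and each held within a narrow band. The difference was 3.88 ± 0.08 (log2, SE), or 14.7-fold higher in TKO. In cultures measured in bulk, more cells of a kind and more RNA per cell cannot be told apart.

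The second Cxcl12 probe, A_55_P1966204 (chr6:117125026-117125085, plus strand, mm9), is annotated to a single other RefSeq transcript. It had -2.01, -2.11 and -2.07 in TKO, against -3.43, -3.34 and -3.36 in WT, a difference of 1.31 ± 0.05 (SE) or 2.48-fold. Both probes were higher in TKO, but not by the same amount. The change of the first probe from its WT mean exceeded that of the second by 2.58, 2.54 and 2.59 on the TKO arrays, against 0.06, -0.17 and 0.10 on the WT arrays. Averaging both probes therefore gave Cxcl12 a difference of 2.60, and the normexp setting gave 2.98. That setting fits a model of signal and background to each array and then adds an offset of 50 intensity units to every spot. The unlike values came from the whole probes of 60 bases, and the first 30 bases of each are shown.
A_51_P172502: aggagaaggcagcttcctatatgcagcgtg
A_55_P1966204: gctgtaaacctcctaccgtatgtgggaatt

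Cxcl10, or IP-10, is an interferon-induced ligand of Cxcr3. Its probe A_55_P2016462 (chr5:92775781-92775840, minus strand, mm9) had -1.25, -1.03 and -1.33 in TKO, against -4.18, -3.92 and -3.76 in WT. It was detected on all 6 arrays, with every TKO value above every WT value, and the difference was 2.75 ± 0.13 (SE), 6.73-fold. The WT signals were only 20.3 to 28.8 intensity units, against 164.6 to 188.1 in TKO, and under normexp the difference was 1.29. A second probe named Cxcl10, A_55_P2016459 (chr5:92776616-92776675, minus strand, mm9), was detected on 0 arrays. That probe carries cDNA accessions but no RefSeq transcript, and whether it lies in the transcript that the first probe measures could not be settled here. The first 30 bases of each are shown, the detected probe first.
A_55_P2016462: gctttgcattgtatatggaagaacttgtgt
A_55_P2016459: ttcctagtgtctagaagtggagcagttatt

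Cxcl5, an attractant of neutrophils, was measurable in TKO cells alone. Its probe A_55_P1990032 (chr5:91190490-91190549, plus strand, mm9) had -3.48, -3.40 and -3.27 in TKO, all detected. The WT values of -5.90, -5.07 and -5.86 were all not well above background. No level was measured on the WT side, so a floor was used in its place. For each WT array this floor was the higher of the probe's own level and the lowest detected level of the array. Against that floor Cxcl5 was 3.12-fold higher in TKO. The floor is not a strict limit, as the undetected -5.07 of WT replicate 2 lay above the lowest detected level of that array, -5.31. The measured means gave 2.23 ± 0.24 (SE) on the log2 scale, against 0.45 under normexp. The TKO signals were 36.4 to 42.9 intensity units, near the dim end of the arrays.

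Cxcl14, a chemokine of epithelia and developing tissues, differed less. Its probe A_51_P209183 (chr13:56390078-56390137, minus strand, mm9) had 0.62, 0.43 and 0.38 in TKO, against -0.72, -0.63 and -0.73 in WT. The difference was 1.17 ± 0.07 (SE), 2.25-fold, and it stayed between 0.97 and 1.31 under the 17 alternative settings.

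Cxcl16 is made as a membrane-bound chemokine that Adam10 and Adam17 can shed, and it binds Cxcr6. Its probe A_52_P99888 (chr11:70267780-70267839, minus strand, mm9) had -1.49, -1.62 and -1.58 in TKO, against -2.90, -2.62 and -2.74 in WT. The groups did not overlap, and the difference was 1.19 ± 0.08 (SE), 2.28-fold. Under normexp it was 0.66.

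Cxcl11 was the fitted member whose groups overlapped. Probe A_55_P2160387 (chr5:92788567-92788626, minus strand, mm9) had 7.95, 8.16 and 8.0 in TKO, against 8.20, 8.14 and 8.03 in WT, a difference of -0.09 ± 0.08 (SE). Probe A_55_P2044413 (chr5:92788640-92788699, minus strand, mm9) had 3.55, 3.75 and 3.68 in TKO, against 3.84, 3.85 and 3.71 in WT, a difference of -0.14 ± 0.07. Centring each array on its median, which lowers every difference by about 0.2, gave -0.29 for the first probe, and Cxcl11 was then called lower.

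The signals of the Cxcl11 probes need not come from Cxcl11 alone. Probe A_55_P2160387 gave 100606 to 109650 intensity units in TKO and 101594 to 112424 in WT. The probe shared a run of 20 bases with the promoter windows of 21 other genes and with 7 array probes of other genes, whereas each of the other 12 member probes shared no such run with a promoter of another gene. On the whole array, 2.93% of probes shared 20 bases with the promoter of at least 1 other gene, and 0.372% with as many genes as this probe. The second Cxcl11 probe shared 15 bases with promoters of 17 other genes and with 4 probes of other genes. The letters resemble the B1 repeat, a short interspersed element present throughout the mouse genome. A 30-base stretch of each probe is shown (bases 15 to 44 and bases 20 to 49), with capitals on the run found in the promoters of 14 and of 5 other genes.
A_55_P2160387: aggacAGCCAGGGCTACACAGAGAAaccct
A_55_P2044413: acttgaaAGGCAGAGGCAGGAGgatctctt

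The 7 probes of other genes that share the run were each detected on all 6 arrays. Their differences lay between -0.09 and 0.38, and 2 of the 7 were called (AK140579 at 0.37 and Timmdc1 at 0.38). How much of the Cxcl11 signal came from repeats in other transcripts was not tested.

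The 3 undetected genes had values at the bottom of the arrays, which have no order. Cxcl1, known as KC (probe A_51_P363187, chr5:91321845-91321904, mm9), read -5.81, -6.43 and -6.12 in TKO, against -5.52, -7.12 and -7.19 in WT. Cxcl2, or MIP-2 (A_51_P217463, chr5:91334534-91334593, mm9), read -6.65, -6.40 and -6.53 in TKO, against -7.17, -7.51 and -7.14 in WT. The 2 probes of Cxcl9, or MIG, lay between -6.64 and -5.64 in TKO and between -7.12 and -5.74 in WT. These values give no fold and do not show that the genes were silent, since the arrays could not measure them above background.

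**Figure D2:**
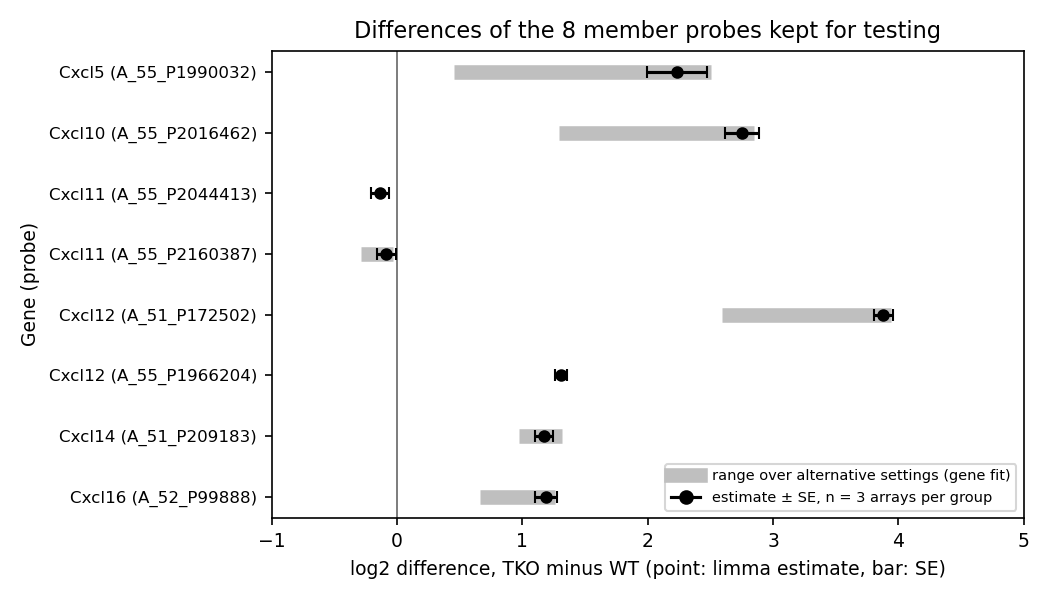
Differences in log2 level, TKO minus WT (horizontal axis), of the 8 fitted member probes (vertical axis), with SE bars from limma (3 arrays per group). Grey bars span the gene's value over the alternative settings and are drawn at its brightest fitted probe. The low end for Cxcl12 is the mean of both its probes. The grey bars of Cxcl5 (down to 0.45), Cxcl10 (1.29), Cxcl12 (2.60) and Cxcl16 (0.66) reach well to the left of their points, and both Cxcl11 probes sit near 0.

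RefSeq promoter sequence (build GRCm38.p6) was given for 6 of the 9 genes. The 250 bases before the start are shown for 3 genes that were higher in TKO and for the 2 undetected neutrophil attractants, with CG dinucleotides, the sites of most DNA methylation in mammals, in capitals.
Cxcl12: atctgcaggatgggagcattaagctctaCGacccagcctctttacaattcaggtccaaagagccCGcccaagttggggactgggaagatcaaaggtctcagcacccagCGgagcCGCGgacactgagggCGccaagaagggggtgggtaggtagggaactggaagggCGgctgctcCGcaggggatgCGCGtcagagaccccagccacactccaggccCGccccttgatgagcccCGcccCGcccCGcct
Cxcl10: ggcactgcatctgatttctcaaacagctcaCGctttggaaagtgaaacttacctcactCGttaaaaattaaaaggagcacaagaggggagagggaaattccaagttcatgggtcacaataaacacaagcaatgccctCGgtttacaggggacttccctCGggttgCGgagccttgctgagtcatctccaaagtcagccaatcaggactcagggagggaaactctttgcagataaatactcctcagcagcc
Cxcl14: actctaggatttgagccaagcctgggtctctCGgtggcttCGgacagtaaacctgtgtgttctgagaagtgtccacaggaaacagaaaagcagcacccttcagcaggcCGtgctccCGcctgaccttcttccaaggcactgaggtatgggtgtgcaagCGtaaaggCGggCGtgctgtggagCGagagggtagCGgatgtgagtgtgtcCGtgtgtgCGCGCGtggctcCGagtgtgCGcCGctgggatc
Cxcl1: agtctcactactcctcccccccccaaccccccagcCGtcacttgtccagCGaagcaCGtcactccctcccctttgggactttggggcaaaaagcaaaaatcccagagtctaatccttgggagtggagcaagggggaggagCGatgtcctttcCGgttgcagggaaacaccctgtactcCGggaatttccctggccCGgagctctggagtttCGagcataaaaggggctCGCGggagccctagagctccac
Cxcl2: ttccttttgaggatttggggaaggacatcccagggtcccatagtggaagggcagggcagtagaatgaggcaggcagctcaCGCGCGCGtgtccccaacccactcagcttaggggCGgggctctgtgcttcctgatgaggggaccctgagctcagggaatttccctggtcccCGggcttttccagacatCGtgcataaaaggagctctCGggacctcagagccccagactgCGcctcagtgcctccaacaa

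The windows are chr6:117168285-117168534 (plus strand) for Cxcl12, chr5:92348890-92349139 (minus strand) for Cxcl10, chr13:56296552-56296801 (minus strand) for Cxcl14, chr5:90890995-90891244 (plus strand) for Cxcl1 and chr5:90903649-90903898 (plus strand) for Cxcl2. CG dinucleotides numbered 14 in the Cxcl12 window, 5 in Cxcl10, 16 in Cxcl14, 10 in Cxcl1 and 9 in Cxcl2, and 3 in the Cxcl9 window, against a median of 6 over 32851 promoter entries. Of the 3 higher genes with an entry, Cxcl10 lay near that median and Cxcl12 and Cxcl14 above it, with 44.4%, 70.6% and 74.6% of entries having fewer. DNA methylation was not measured on these arrays.

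The windows were searched on both strands for letters resembling sites of inflammatory and interferon-responsive factors. The NF-kB-like motif GGGANNTTC was present in Cxcl1, Cxcl2, Cxcl9 and Cxcl10 and in 3.23% of all entries. In Cxcl1 and Cxcl2 it occurs on both strands at positions that overlap, 71 and 97 bases before the start on the strand of the gene. In Cxcl10 it begins 159 bases before the start. The motif GAAANNGAA, which resembles part of an interferon-stimulated response element, was present in Cxcl9 (175 bases before the start), Cxcl10 (213 bases) and Cxcl14 (172 bases), and in 7.13% of entries. The GC box GGGCGG occurred 5 times in Cxcl12, 1 time in Cxcl2 and in 32.7% of entries, and TATAAA occurred in Cxcl9 and in 12.4% of entries. The NF-kB-like letters stand in windows of undetected genes as well as in that of Cxcl10, and these matches are descriptions of sequence only.

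The other CXC ligands on the array, Cxcl3, Cxcl13, Cxcl15, Cxcl17, Pf4 and Ppbp, were detected on 0 arrays. Of 10 CXC and atypical receptors, 4 were tested, of which 1 rose, 0 fell and 3 did not pass the test. That is 25% called, against 59.6% of all tested genes. Cxcr1, Cxcr2, Cxcr3, Cxcr5, Ackr1 and Ackr2 were detected on too few arrays to test.

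Ackr4, an atypical receptor that takes up Ccl19, Ccl21 and Ccl25, was the receptor that rose. Its probe A_55_P2050226 had -2.77, -1.84 and -2.84 in TKO, all detected, against -7.12, -7.39 and -7.09 in WT, none well above background. Against the WT floor defined for Cxcl5 it was 6.12-fold higher in TKO (measured difference 4.71 ± 0.29 SE, and 1.18 under normexp). Like Cxcl5, Ackr4 passed the filter through its TKO arrays alone, so its call compares detected values with unmeasured ones. A second Ackr4 probe was detected on 2 TKO arrays and 0 WT arrays.

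Cxcr4, Ackr3 and Cxcr6 did not pass the test. Cxcr4, the receptor of Cxcl12, had -3.22, -4.56 and -4.50 in TKO, of which only the first was detected. The WT values were -4.55, -4.67 and -4.51, all detected. The lowest detected level was -4.24 and -4.36 on TKO replicates 2 and 3, against -5.03, -5.31 and -4.97 on the WT arrays. Detection near the floor is therefore not comparable between these arrays. The difference of 0.49 ± 0.37 (SE, limma adjusted p = 0.309) rested on TKO replicate 1, without which it was 0.05. Row 2 of the slide held TKO arrays alone, so a block for the row leaves TKO replicate 1 as the single TKO array, and the difference was then 1.36 and past the threshold. Ackr3, which takes up Cxcl11 and Cxcl12, had -0.01, -0.28 and -0.23 in TKO, against -0.04, -0.15 and -0.17 in WT (difference -0.05 ± 0.08 SE, adjusted p = 0.631). Its groups overlapped, and its sign turned under 4 of 17 settings.

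Cxcr6, the receptor of Cxcl16, had -2.14, -1.89 and -2.28 in TKO, against -3.14, -2.75 and -1.25 in WT, where WT replicate 3 stood above all other arrays. The difference was 0.28 ± 0.50 (SE, limma adjusted p = 0.661), and it was 0.84 and past the threshold without WT replicate 3 and -0.10 without WT replicate 1. The second Cxcr6 probe, which starts 10 bases away, differed by 0.61 ± 0.13 (SE, adjusted p = 0.00828) with groups that did not overlap. The Cxcr6 probes thus disagree on the call.

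Chemokines of the other families were tested from a list of 23, with 22 on the array and 7 tested. Of these, 4 rose, 2 fell and 1, Ccl5, did not pass, so 85.7% were called, against 59.6% of all tested genes. The median difference of the 7 was 1.04, against -0.01 over all tested genes. Ccl25, which attracts thymocytes and gut-homing T cells, had 2.83, 2.81 and 2.76 in TKO, against -0.25, -0.20 and -0.24 in WT, a difference of 3.02 ± 0.04 (SE, limma adjusted p = 1.14e-06). The mean over its kept probes gave 0.59. The monocyte attractants Ccl7 and Ccl2 rose by 1.26 ± 0.11 (SE, adjusted p = 0.00026) and 1.05 ± 0.10 (adjusted p = 0.000328), and Ccl27a by 1.04 ± 0.10 (adjusted p = 0.000334). Cx3cl1, a membrane-tethered chemokine, fell by 0.68 ± 0.09 (adjusted p = 0.00157). Ccl19 differed by -0.29 ± 0.10 (adjusted p = 0.0496), a call lost under 10 of 17 settings.

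Genes of the NF-kB pathway, which drives inflammatory chemokine transcription, did not move in one direction. Of 18 tested, 4 rose, 6 fell and 8 did not pass, with a median difference of -0.11. The 55.6% called is near the 59.6% of all tested genes (30% higher, 29.7% lower), so the split is not read as particular to the pathway. Nfkbia, an inhibitor that the pathway itself induces, rose by 1.00 ± 0.04 (SE, limma adjusted p = 1.44e-05). Tnip1 rose by 0.67 ± 0.04, Relb by 0.59 ± 0.04 and Nfkbib by 0.49 ± 0.06, but averaging their probes gave 0.37 for Relb and -0.08 for Nfkbib, and median centring gave 0.39 and 0.29. The coactivator Bcl3 fell by 1.39 ± 0.07 (adjusted p = 3.01e-05) and the adaptor Myd88 fell by 1.32 ± 0.04 (adjusted p = 5.5e-06). Tnfaip3, an inhibitor of the pathway, fell by 0.84 ± 0.16, a change of -0.39 under normexp and of -0.48 with a block for the row of the slide, which rests on TKO replicate 1 alone, and the kinase Ikbkb fell by 0.69 ± 0.09. Rel, which encodes a pathway subunit, was detected on 0 arrays.

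The interferon and JAK-STAT genes, upstream of Cxcl9, Cxcl10 and Cxcl11, were also mixed. Of 19 tested, 6 rose, 8 fell and 5 did not pass, with a median difference of -0.02. The share called was 73.7%, against 59.6% of all tested genes, which also split about evenly (30% higher, 29.7% lower). Irf1, a transcription factor of interferon-responsive promoters, had 4.03, 3.94 and 3.97 in TKO, against 2.66, 2.64 and 2.71 in WT, and rose by 1.31 ± 0.04 (SE, limma adjusted p = 7.96e-06). Sting1 (named Tmem173 on the array), an adaptor of cytosolic DNA sensing, rose by 1.23 ± 0.06. The interferon receptor chain Ifnar1 rose by 1.09 ± 0.06, or 0.66 as the mean of its probes, while its partner Ifnar2 fell by 0.78 ± 0.05. Ddx58, an RNA sensor, rose by 0.48 ± 0.09, or by 0.30 with a block for the row of the slide, again on TKO replicate 1 alone, and by 0.28 with median centring. Socs3, a feedback inhibitor of cytokine signalling, fell by 1.58 ± 0.04 (adjusted p = 3.82e-06). Ifngr1 and the kinase Tyk2 fell by 0.83 ± 0.12 and by 0.60 ± 0.05. Irf7, a transcription factor of the interferon response, was detected on 0 arrays and was not tested.

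Among 9 tested genes for proteases and syndecans that cut or hold chemokines, 5 rose, 3 fell and 1 did not pass, with a median difference of 0.16. That is 88.9% called, against 59.6% of all tested genes. Sdc2 rose by 1.56 ± 0.04 (SE, limma adjusted p = 3.47e-06), whereas Sdc4 fell by 2.40 ± 0.07 (adjusted p = 5.97e-06). Dpp4, the peptidase that trims the amino terminus of Cxcl10 and Cxcl12, rose by 0.62 ± 0.06 (adjusted p = 0.000436). Mmp14 rose by 0.58 ± 0.05, or 0.30 under normexp and 0.38 with median centring, and Mmp2 by 0.16 ± 0.04, a call lost or turned under 9 of 17 settings. Sdc3 and Sdc1 fell by 0.32 ± 0.08 and 0.28 ± 0.05. The adjusted p of Sdc3 was 0.0604 without WT replicate 1 and 0.0631 without WT replicate 2, and 0.0592 with the replicate number as a block. That of Sdc1 was 0.0531 on the first array row alone. Of the sheddases of Cxcl16, Adam10 rose by 0.16 ± 0.04 (adjusted p = 0.0201), and Adam17 differed by 0.05 ± 0.05 (adjusted p = 0.434).

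**Figure D3:**
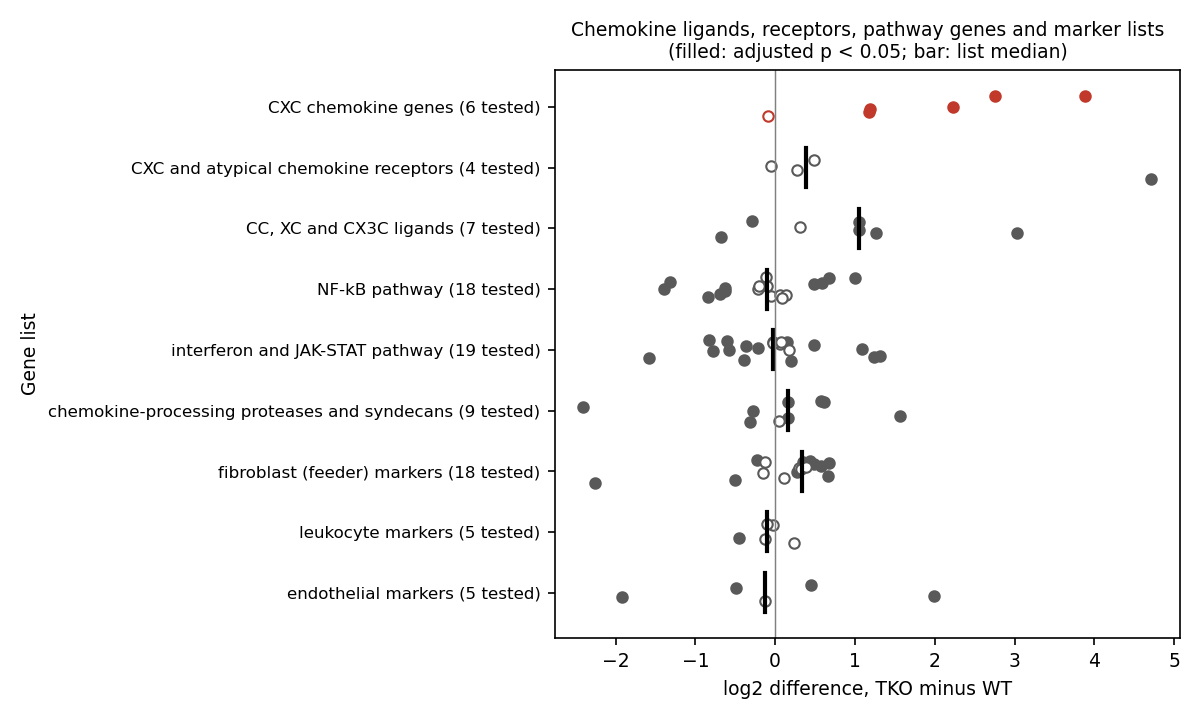
Differences in log2 level, TKO minus WT (horizontal axis), of the tested genes of each list (vertical axis), filled where the limma adjusted p was under 0.05, with a bar at the median of each list other than the members. Genes of the NF-kB and interferon lists lie on both sides of 0, and Ackr4 at 4.71 and Ccl25 at 3.02 lie furthest to the right in their lists. The WT side of Ackr4 had no measured level.

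Feeder fibroblasts, leukocytes and endothelial cells also make CXC chemokines, so their markers were set beside the members. Of 20 fibroblast markers, 18 were tested, of which 9 rose, 3 fell and 6 did not pass, with a median difference of 0.34. The brightest were Fn1 and Vim, which fell by 0.23 ± 0.05 and 0.50 ± 0.04, and Col1a2, which rose by 0.38 ± 0.08 (SE, limma adjusted p = 0.00634, 0.000107 and 0.00686 in that order). The summed level of the list on a linear scale, each probe relative to the 75th percentile, was 177.8 to 192.0 in TKO and 201.2 to 204.1 in WT. This sum is weighted to its brightest probes, those of Fn1 and Vim, which both fell, whereas 9 of the 18 tested markers rose. The sum therefore does not stand for the list as a whole. Lum was detected on 0 arrays. Of 10 leukocyte markers, Ptprc, Itgax and Lyz2 were among those detected on 0 arrays, and of 5 tested 0 rose, 1 fell and 4 did not pass. Of the brightest, Itgam differed by -0.02 ± 0.11, Cd68 fell by 0.45 ± 0.06 and Cd3e differed by -0.10 ± 0.04 (adjusted p = 0.878, 0.00105 and 0.0516 in that order). The summed level was 11.45 to 12.1 in TKO and 12.6 to 14.1 in WT. Of 8 endothelial markers, Cdh5, Tie1 and Emcn were detected on 0 arrays, and of 5 tested 2 rose, 2 fell and 1 did not pass. Of the brightest, Kdr differed by -0.12 ± 0.07 (adjusted p = 0.181), Eng fell by 0.49 ± 0.05 and Vwf fell by 1.91 ± 0.06. The 2 that rose were Tek, by 1.99 ± 0.09, and Pecam1, by 0.44 ± 0.06. The summed level was 10.4 to 11.1 in TKO and 13.1 to 13.8 in WT. The endothelial sum is weighted to its brightest probes, and Vwf averaged 1.49 in WT and -0.42 in TKO. The leukocyte sum is weighted likewise, so neither stands for its list as a whole. The shares called were 66.7% of tested fibroblast markers, 20% of leukocyte, 80% of endothelial and 80% of embryonic stem cell markers, against 59.6% of all tested genes. The part of other cell types in the members' values was not tested.

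Cxcl1, Cxcl2 and Cxcl5 lie in one cluster on chromosome 5, Cxcl9, Cxcl10 and Cxcl11 in another, and Cxcl12, Cxcl14 and Cxcl16 stand on chromosomes 6, 13 and 11. Within 1000 kb of Cxcl5, 12 other genes were tested, of which 7 rose, 1 fell and 4 did not pass, with a median difference of 0.21. Over all tested genes, 30% rose and 29.7% fell, which applies to the windows below as well. Afm, which encodes afamin, a plasma vitamin E carrier, was the second tested gene on one side, 208 kb away. It was detected on 3 TKO and 0 WT arrays, and against the WT floor it was 9.69-fold higher in TKO. Afm thus also passed the filter through its TKO arrays alone. Rassf6, which lies 158.1 kb away on that side, rose by 1.43 ± 0.05 (SE, limma adjusted p = 8.64e-06). On the other side, Mthfd2l differed by -0.18 ± 0.13 (adjusted p = 0.287) and Epgn by -0.63 ± 0.62 (adjusted p = 0.416).

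Around Cxcl10, 28 other genes were tested within 1000 kb, of which 10 rose, 7 fell and 11 did not pass, with a median difference of 0.13. Sdad1, 62.6 kb away, rose by 0.26 ± 0.04 (SE, limma adjusted p = 0.00371), and the transcript TC1736621, 45.1 kb away, fell by 0.50 ± 0.06 (adjusted p = 0.000904). Art3, on the far side of Cxcl11, differed by 0.50 ± 0.19 (adjusted p = 0.0654). All 3 differences were smaller than the 2.75 of Cxcl10, a gene picked with that difference known.

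Around Cxcl12, 22 genes were tested, of which 4 rose, 7 fell and 11 did not pass, with a median difference of -0.07. The tested gene nearest to it on the lower side, Zfp422, lay 555.8 kb away and fell by 0.21 ± 0.06 (SE, limma adjusted p = 0.023), and Olfr212, 663.3 kb away, differed by 0.10 ± 0.08 (adjusted p = 0.339). Around Cxcl14, 31 genes were tested, of which 6 rose, 10 fell and 15 did not pass, with a median of -0.09. H2afy, a histone variant gene 205.6 kb away, differed by 0.01 ± 0.10 (adjusted p = 0.966), and AW011956, 185.5 kb away on the other side, rose by 1.44 ± 0.07 (adjusted p = 3.33e-05).

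Cxcl16 had the densest surroundings, with 87 tested genes, of which 61 rose, 11 fell and 15 did not pass, and a median difference of 0.52. All 4 neighbours by rule rose. Med11, a Mediator subunit gene whose probe starts 0.794 kb away, rose by 0.93 ± 0.04 (SE, limma adjusted p = 1.19e-05). Arrb2, which encodes beta-arrestin 2, an adaptor that desensitises chemokine receptors, rose by 0.96 ± 0.08 (adjusted p = 0.000176). Zmynd15 rose by 1.41 ± 0.04 (adjusted p = 7.11e-06) and Tm4sf5 by 0.66 ± 0.05 (adjusted p = 0.000176). The shift was not limited to this neighbourhood. On chromosome 11, 57.5% of 1616 tested genes rose, with a median difference of 0.34, against 29.8% on chromosome 5, 28.2% on chromosome 6 and 26.7% on chromosome 13, whose medians were -0.01, -0.03 and -0.03. Ccl2, Ccl7, Tnip1, Irf1 and Pecam1 also lie on chromosome 11, as do Socs3 and Cd68, which fell. The part of this chromosome-wide shift in the values of Cxcl16 and of these genes was not tested. Chromosome 8 was not summarised here. On it lie Cx3cl1, Ikbkb and Zfp42, which fell, and Ccl25 and Mmp2, which rose.

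**Figure D4:**
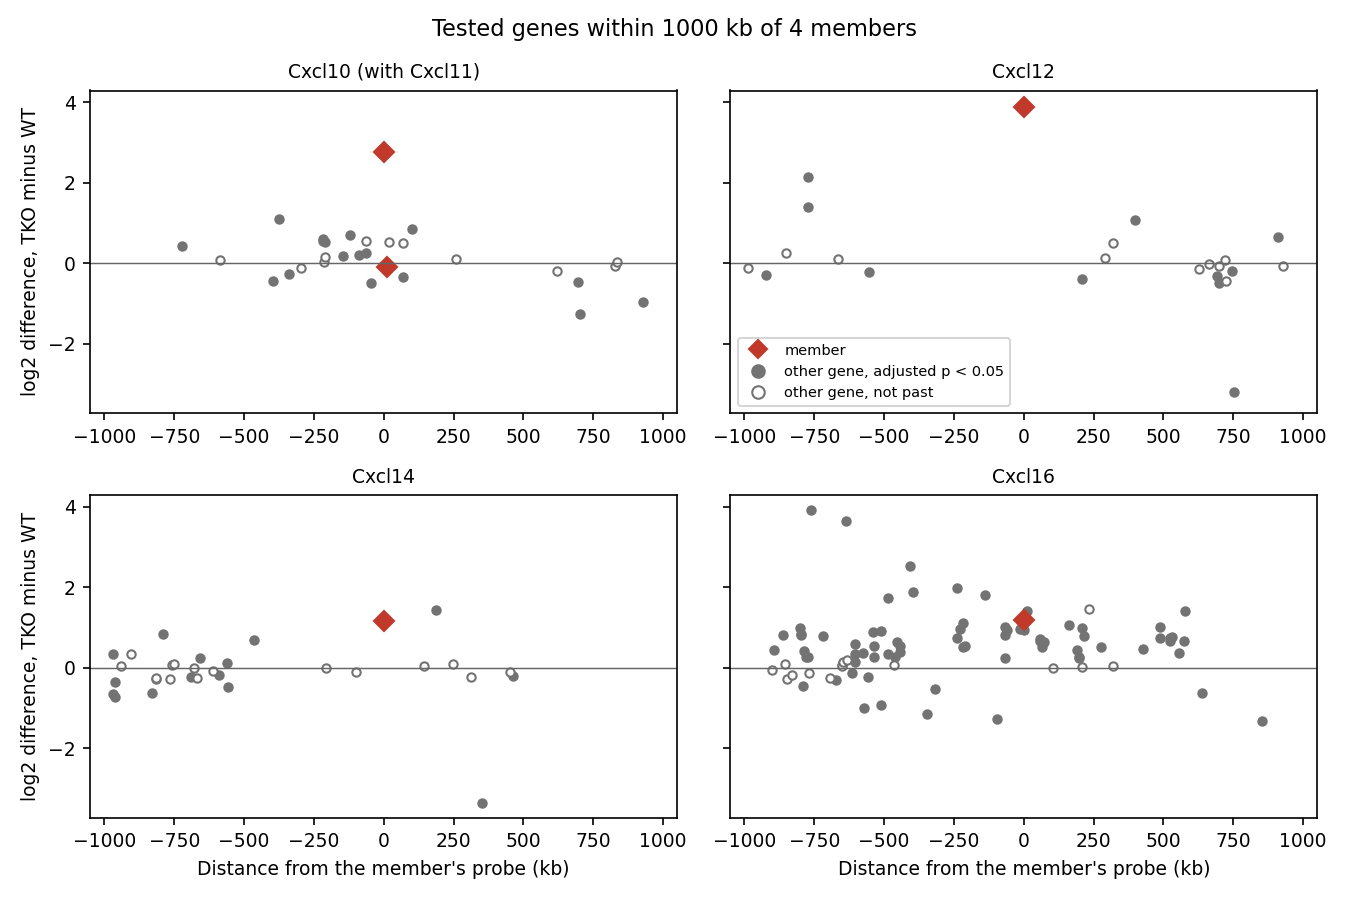
Differences in log2 level, TKO minus WT (vertical axis), of tested genes against the distance of their probes from that of the member in kb (horizontal axis), for Cxcl10 with Cxcl11, Cxcl12, Cxcl14 and Cxcl16, with members as diamonds and other genes filled where the limma adjusted p was under 0.05. Most genes around Cxcl16 lie above 0 (61 of 87 rose), whereas Cxcl10 and Cxcl12 stand above every other gene in their windows. The members were picked with this same difference known, so their rank is a description only.

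The genes whose 6 levels, each set against the gene's own mean, were closest to those of a member were found among 14010 tested genes with a symbol, by root-mean-square distance over the 6 arrays. For Cxcl12 they were Tnfsf13os (0.081), which differed by 3.92, and F13a1 (0.083), whose WT mean of -7.40 lay below the lowest detected level of each WT array, so that its likeness rests on values with no measured level. For Cxcl10 they were Wdr65 (0.068) and Ryr3 (0.087), with differences of 2.78 and 2.73. For Cxcl14 they were Rab19 (0.023) and Lims1 (0.025), for Cxcl16 Ccdc36 (0.040) and Hpn (0.046), and for Cxcl11 Dnajc5 (0.017) and Edem2 (0.025). With 3 arrays in each group, such likeness rests mainly on the single difference between groups.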

How the data were processed

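RNA of 3 TKO and 3 WT dishes was hybridised to Agilent arrays. The submitters' processing notes name Agilent Feature Extraction 11.5.1.1 as the scanner software. Per the file headers, the deposited intensity of a spot is its processed signal, background-subtracted within the array and not normalized between arrays. The deposited spot flags are 0 or 1 (another unit). The authors' deposited table of 55821 rows holds log2 values that tracked the log2 processed signal at a constant shift; its centring is not stated in the sources used here, and its column medians were -3.89, -3.72 and -3.81 for TKO and -3.96, -3.95 and -4.02 for WT.

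Control and outlier spots were left out, spots of a probe were averaged, and the array's 75th percentile was subtracted on the log2 scale. Probes detected on at least 3 of 6 arrays were kept (30730), and the brightest over 6 arrays stood for its gene. TKO minus WT was fitted with limma 3.58.1 (lmFit, eBayes) in R 4.3.3, two-sided, with Benjamini-Hochberg adjustment over 21561 genes and calls under 0.05. Probe differences of members come from the same fit over all kept probes. A group with no detected array gives no measured level, and a fold against the floor of its arrays is not a strict limit. The fit was tested on simulated data. Same-numbered dishes did not deviate together (correlations -0.069, -0.024 and 0.006), so the numbers were not used as pairs. Arrays rather than read depth set the precision. Probe positions are mm9 per the file headers, and exon or UTR placement was not used here. Promoters are RefSeq's, build GRCm38.p6.

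The members, the gene lists, the alternatives and the naming rules were chosen with earlier results of these data known. Named were all members, CXC ligands and receptors, up to 4 rising and 4 falling called genes of each other list whose groups do not overlap, the 3 brightest of each marker list, the 2 nearest tested genes on each side of a member, and the 2 genes most alike to each member detected throughout. Unnamed transcripts among the neighbours are mostly left out of the text. Adam10, Adam17, Ccl5, Rel, Irf7, Zfp42, Tdgf1, Tek, Pecam1, Pdgfrb and Fbln2 fall outside these rules. So do the undetected markers and the 2 called probes sharing bases with Cxcl11. All of these were named after their values were seen. Some genes of the lists are not reported here.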

Additional observations from a re-analysis of the deposited data

How the results depend on the processing

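The number of members called was 5 under 14 of 17 alternatives, 4 of 5 when detection on all 6 arrays was required (Cxcl5 was not tested), 6 of 9 with no filter and 6 with median centring, where Cxcl11 was called lower. All called members kept their sign in every setting run. These settings refit the arrays on which the members were chosen, so nothing is read from their counts or signs. Calls over all genes numbered 10088 to 13314, against 12861, and those among related lists 56 to 67, against 64. Median centring moved the median gene from -0.01 to -0.21 and split the calls into 3826 higher and 9488 lower, against 6463 and 6398, and with no filter the median gene was at 0.14. With the replicate number as a block (replicate block), 11618 genes, 5 members and 60 list genes were called; the numbers share no source in the labels. Leaving out 1 array at a time gave 11537 to 12464 calls. Signs turned for Cxcr6 (-0.104 to 0.841 over left-out arrays), Ackr3 (-0.133 to 0.0025 over left-out arrays, 0.0069 under normexp, 0.113 with the array row as a block and on the first row alone), Nfkbib (-0.079 as the mean of its probes) and Mmp2 (-0.038 with median centring); the cause was not tested. Under normexp with offset 50 the differences of Cxcl5, Cxcl10 and Cxcl16 shrank by over 1.5 times and that of Cxcl12 was 2.98, against 3.88. An offset added to every spot by itself shrinks the log2 differences of dim probes. How much of the change came from the offset and how much from the background model was not tested. The array row as a block leaves 1 TKO array against 3 WT arrays and assumes that it varies like the other arrays.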
